A study of Mus musculus with 8 samples.

Results

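The lysyl oxidase family, the enzymes that crosslink collagen and elastin, was followed in dermal fibroblasts of young and old mice. The family comprises Lox, Loxl1, Loxl2, Loxl3 and Loxl4. Its members were taken as every probe set that the array annotation assigned to exactly 1 of these 5 gene symbols, which gave 9 of 45141 probe sets. Lox had 3 probe sets, Loxl1 and Loxl4 had 2 each, and Loxl2 and Loxl3 had 1 each. Expression was measured on 8 Affymetrix arrays, 1 per mouse, from C57Bl/6 males, 4 young at an age of 2 months and 4 old at 18 months. Replicates are different animals. The cells were sorted from digested dermis as Pdgfra-positive and CD34-positive and as negative for CD45, CD117, CD24, CD31 and EpCam. RNA came from 5000 cells per mouse and was amplified for 21 cycles. In such a sorted population, fewer cells that express a gene and less RNA per cell cannot be told apart.

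Lysyl oxidases are secreted, copper-dependent amine oxidases. They turn lysine and hydroxylysine side chains of collagen and elastin into reactive aldehydes, which then condense into the crosslinks that give skin its tensile strength and recoil. Lox and Loxl1 are made as proenzymes with a basic propeptide that is cut off outside the cell, whereas Loxl2, Loxl3 and Loxl4 carry scavenger receptor cysteine-rich domains in front of the same catalytic domain. In skin, Lox is known as the main collagen crosslinking enzyme, Loxl1 as the enzyme that works with fibulin-5 on elastin, and Loxl2 as one that also crosslinks collagen IV of basement membranes.

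Each value is the log2 expression level of a probe set, a group of probes combined into 1 value. Levels of different probe sets are not read as differences in transcript amount, because probes differ in how well they bind. They are set against the dim threshold and the controls, ranked within a gene and averaged over marker lists. A probe set was called dim when both ages lay below 5.10, the median of all probe sets' means. Non-specific control probe sets had a median of 3.91 and single values from 2.98 to 7.20. Array medians lay between 5.06 and 5.14. By the numbers in their titles, the mice fell into 2 runs, each with 2 young and 2 old mice (young and old replicates 1 and 2 in run 1, replicates 3 and 4 in run 2). The study took 2 young and 2 old mice per collection day, but whether the runs are the days is not stated.

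The sorted cells carried fibroblast transcripts, with Dcn at a mean of 13.05, Col1a1 at 13.11 and Cd34 at 10.91, while the brightest probe set of the gate gene Pdgfra was dim at 4.76. The 8 fibroblast markers averaged 10.23 to 10.36 in young and 10.04 to 10.22 in old mice, so the ages did not overlap. Thy1 was past the threshold (lower in old), and 4 of the 8 had an unadjusted limma p under 0.05. Of these 4, Thy1 (-0.61), Pdgfra (-0.59) and Col1a2 (-0.40) were lower in old mice and Cd34 (0.20) was higher. Pdgfra and Col1a2 overlapped between the ages. The Col1a2 probe set, with a mean of 7.12, changed by -0.725 in run 1 and by -0.08 in run 2. Of the 6 melanocyte markers, Mlana passed (higher in old), Dct, Tyr and Tyrp1 were dim, and the list averaged 5.25 to 5.52 in young and 5.86 to 6.10 in old mice. That gap rested on Mlana (2.88). The other 5 averaged 5.17 to 5.31 in young and 5.28 to 5.38 in old mice and overlapped. Of these 5, Pmel (-0.09) and Tyrp1 (-0.06) were lower in old mice. Mitf (0.57, limma unadjusted p = 0.028), Tyr (0.12) and Dct (0.105) were higher, without passing. The 6 keratinocyte markers averaged 5.39 to 6.20 in young and 5.71 to 7.44 in old mice, highest in old replicate 3, and none passed in limma (2 had an unadjusted p under 0.05). All 6 had a higher mean in old mice: Krt5 (1.12), Dsp (1.11), Krt1 (0.625), Epcam (0.40), Krt10 (0.35) and Krt14 (0.235). No marker passed among 6 of smooth muscle and pericytes (3 of them above the dim threshold), 7 of endothelium (4), 7 of immune cells (2), 1 of adipocytes (0) or 2 of Schwann cells (1), and 1 of these 23 had an unadjusted p under 0.05. In each of these lists the ages overlapped. The 2 immune markers above the dim threshold were Csf1r, with a mean of 8.83, and Cd68, with a mean of 6.75. Of the genes of the negative gate, Ptprc, which encodes CD45, averaged 3.47, below the median of the non-specific controls. Pecam1, which encodes CD31, averaged 5.97, above the dim threshold, with overlapping ages. Epcam averaged 5.25, also above it, and was 0.40 higher in old mice, with no overlap (limma adjusted p = 0.0717). The part of melanocyte and keratinocyte RNA in the results below was not tested. Values without old replicate 3 are given for the family. Leaving out that mouse does not remove the keratinocyte difference. Krt5 also read 8.43 in old replicate 4, against 6.11 to 7.55 in young mice.

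**Figure D1:**
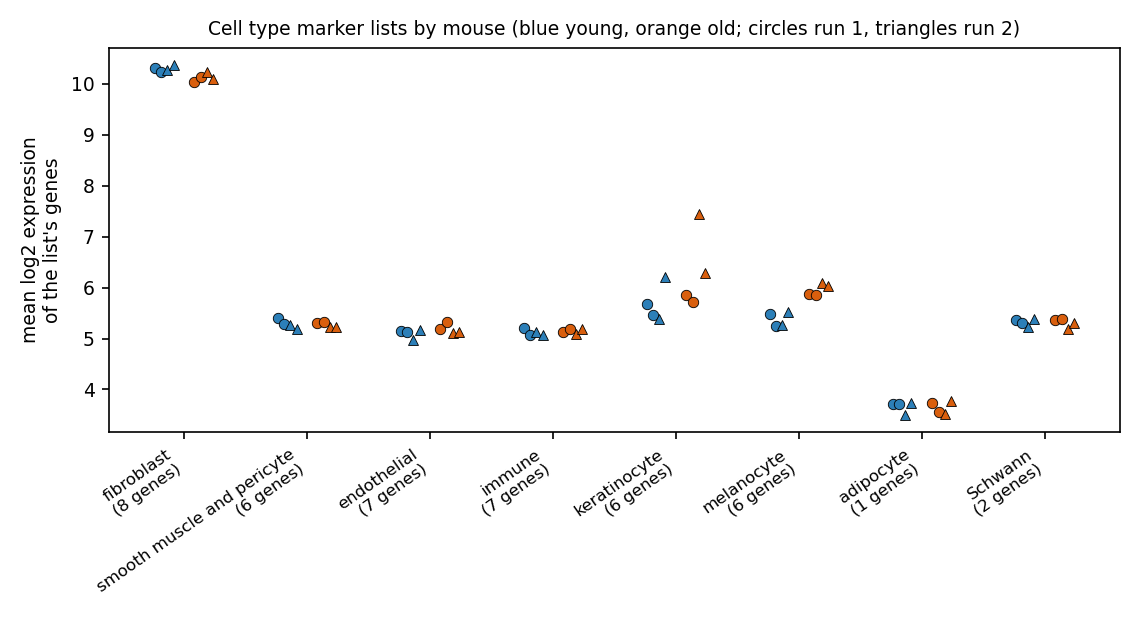
Mean log2 expression of each list of cell type markers (y axis) in each mouse, young in blue and old in orange, with circles for run 1 and triangles for run 2. The fibroblast list lies near 10 in all mice, and lower in all 4 old mice than in any young mouse. The melanocyte list is higher in all 4 old mice than in any young mouse through Mlana alone (the means of the other 5 genes overlap). Old replicate 3 has the highest keratinocyte value, 7.44.

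The question was whether and how each lysyl oxidase differed between the fibroblasts of young and old mice. Lox and Loxl1 were higher in old fibroblasts, Loxl2 and Loxl3 were lower, and neither probe set of Loxl4 passed the test. Of the 9 probe sets, 6 passed the threshold (limma adjusted p under 0.05 over all 45141 probe sets), 4 higher and 2 lower in old mice. Without young replicate 2, old replicate 2 or old replicate 4, 3 passed, all of them higher. Across the whole array 2.57% of probe sets passed, 1.23% higher and 1.34% lower, and 4.64% passed among those with a mean above the dim threshold. The same 6 family probe sets were those whose young and old values did not overlap, against 8.42% of all probe sets (3.95% higher in old and 4.47% lower). The median change over the 9 probe sets was 0.22, beside 0.01 over all probe sets.

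**Figure D2:**
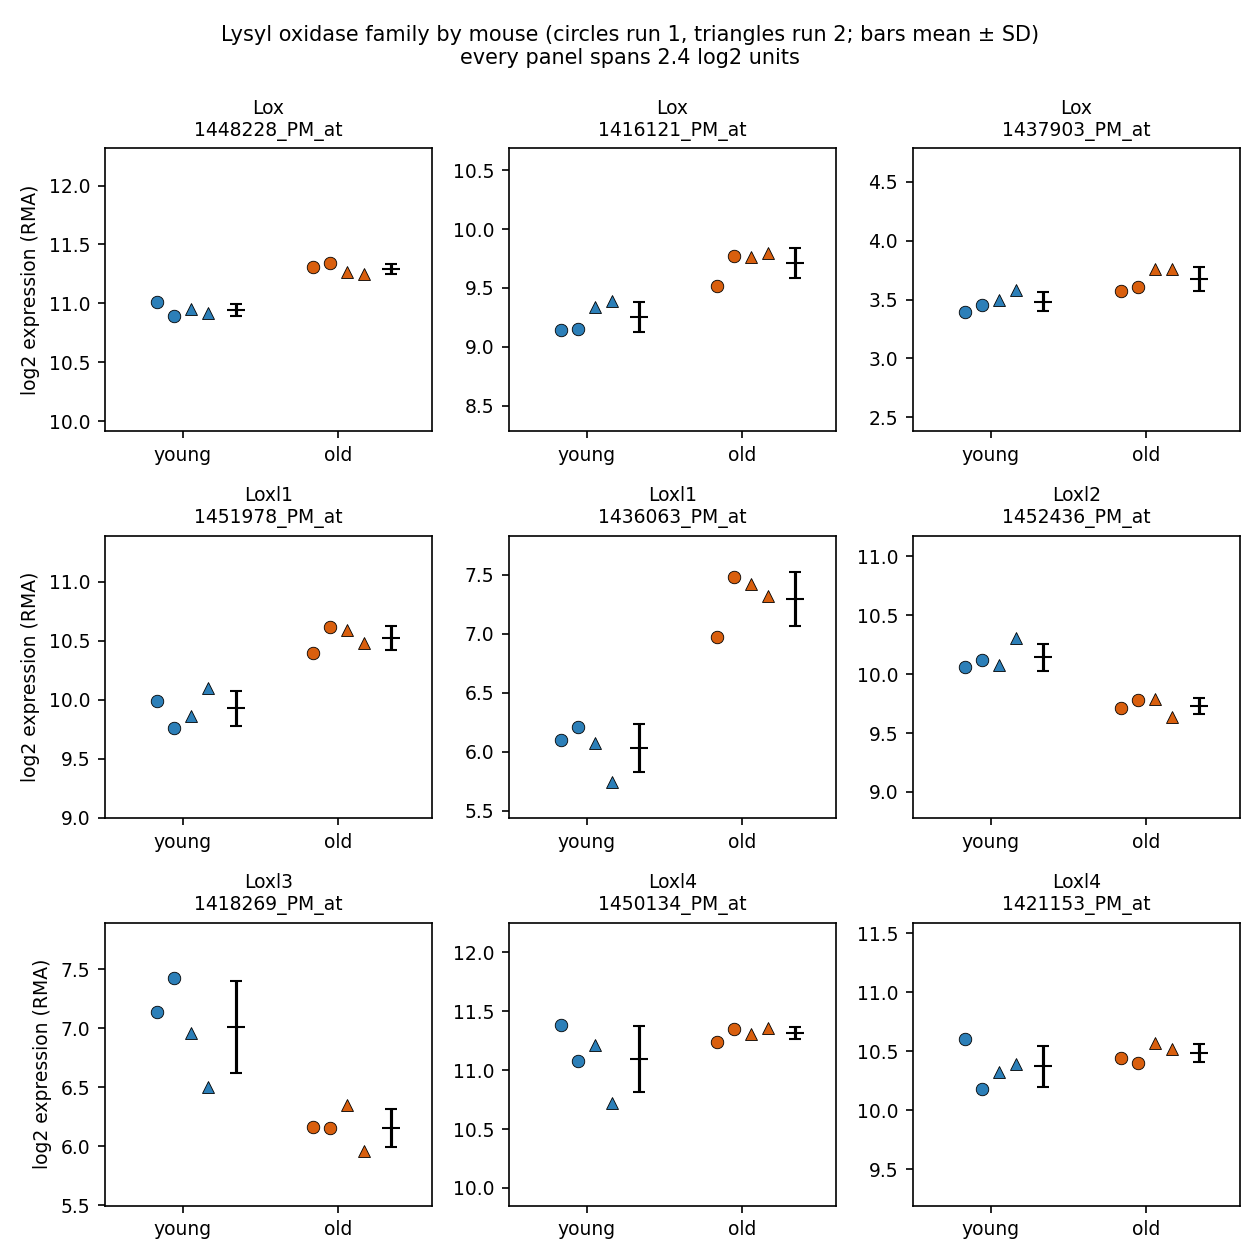
Log2 expression (y axis, each panel spanning 2.4 units) of the 9 lysyl oxidase probe sets in each young (blue) and old (orange) mouse, with circles for run 1, triangles for run 2 and bars for mean ± SD (n = 4). Old mice lie above all young mice for both bright Lox and both Loxl1 probe sets, below them for Loxl2 and Loxl3, and among them for Loxl4.

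Lox encodes the founding enzyme of the family. Its brightest probe set (1448228_PM_at) read 11.01, 10.89, 10.95 and 10.92 in young replicates 1 to 4 and 11.31, 11.34, 11.27 and 11.25 in old replicates 1 to 4. All old mice thus lay above all young mice, and the values within each age were close together. The mean rose from 10.94 ± 0.05 to 11.29 ± 0.04 (SD, n = 4 each), a change of 0.35 ± 0.055 (SE) or 1.27-fold (limma adjusted p = 0.0124). This small change kept its call in every fit that left out 1 mouse, with values from 0.33 to 0.37 and adjusted p up to 0.0463.

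A dimmer Lox probe set (1416121_PM_at) read 9.14, 9.15, 9.34 and 9.39 in young mice and 9.52, 9.77, 9.76 and 9.80 in old mice. The ages did not overlap, but old replicate 1 stood 0.13 above the highest young mouse, well below the other old mice. The change was 0.46 ± 0.088 (SE; limma adjusted p = 0.0295). This probe set lost its call without young replicates 1, 2 or 3 (adjusted p = 0.0814, 0.088 and 0.0576) and without old replicates 2, 3 or 4 (0.0902, 0.0816 and 0.0877). Centring each array on its median also ended the call (0.0569). Its change was between 0.42 and 0.52 in the fits without 1 mouse. The changes of the 2 bright Lox probe sets, which the annotation places on the same transcript accession, differed by 0.11 (exact permutation p = 0.314, two-sided, 70 splits; adjusted p = 0.471 over 3 such pairs).

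The third Lox probe set (1437903_PM_at) was dim, with 3.39 to 3.58 in young and 3.57 to 3.76 in old mice. These values lie below the median of the non-specific controls, and the ages overlapped. Its change of 0.20 ± 0.071 (SE) did not pass (limma adjusted p = 0.245).

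Loxl1 encodes the family member tied to elastic fibres. Its brightest probe set (1451978_PM_at) read 9.99, 9.76, 9.86 and 10.10 in young mice and 10.40, 10.62, 10.59 and 10.48 in old mice. The ages did not overlap, with old replicate 1 nearest to the young mice. The mean rose from 9.93 ± 0.15 to 10.52 ± 0.10 (SD, n = 4 each), a change of 0.60 ± 0.087 (SE) or 1.51-fold (limma adjusted p = 0.00864).

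The dimmer Loxl1 probe set (1436063_PM_at) had the largest change in the family. It read 6.10, 6.21, 6.07 and 5.74 in young mice and 6.97, 7.48, 7.42 and 7.32 in old mice, so the closest mice of the 2 ages were 0.76 apart. The change was 1.27 ± 0.13 (SE), or 2.41-fold (limma adjusted p = 0.00186), and 99.8% of all probe sets had a lower change. Both Loxl1 probe sets kept their calls in every fit without 1 mouse, from 0.54 to 0.65 for the brighter and from 1.17 to 1.38 for the dimmer. The dimmer one rose by 0.67 more than the brighter one (exact permutation p = 0.0286, two-sided, the smallest that 70 splits allow; adjusted p = 0.0858 over the 3 pairs), a difference that did not pass after adjustment. The mean of the Loxl1 probe sets changed by 0.93.

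Loxl2 encodes an oxidase that also acts on collagen IV. Its probe set (1452436_PM_at) read 10.06, 10.12, 10.08 and 10.31 in young mice and 9.71, 9.78, 9.79 and 9.64 in old mice. Every old mouse lay below every young mouse. The mean fell from 10.14 ± 0.11 to 9.73 ± 0.07 (SD, n = 4 each), a change of -0.41 ± 0.073 (SE) or 1.33-fold lower (limma adjusted p = 0.0204). The call was lost without young replicate 2 (-0.42, adjusted p = 0.0566), old replicate 2 (-0.43, 0.0508) or old replicate 4 (-0.38, 0.0629).

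Loxl3 encodes an oxidase known from mouse genetics to be needed for palate and spine cartilage. Its probe set (1418269_PM_at) read 7.14, 7.43, 6.96 and 6.50 in young mice and 6.16, 6.15, 6.35 and 5.96 in old mice. The ages did not overlap, but young replicate 4 was only 0.15 above old replicate 3. The young mice were widely spread, with an SD of 0.39 against 0.16 in old mice. The mean fell from 7.01 to 6.16, a change of -0.85 ± 0.18 (SE) or 1.81-fold lower (limma adjusted p = 0.0398). Loxl3 did not pass without young replicates 1, 2 or 3 (adjusted p = 0.109, 0.0767 and 0.0927) or without old replicates 1, 2, 3 or 4 (0.0807, 0.104, 0.0678 and 0.109), and passed only without young replicate 4 among these fits. Its change lay between -1.02 and -0.71 throughout.

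Loxl4 encodes the remaining oxidase with scavenger receptor domains. Its brightest probe set (1450134_PM_at) read 11.38, 11.08, 11.21 and 10.72 in young mice and 11.24, 11.35, 11.31 and 11.36 in old mice. The other (1421153_PM_at) read 10.60, 10.18, 10.32 and 10.39 in young mice and 10.44, 10.40, 10.57 and 10.52 in old mice. The ages overlapped in both. The changes were 0.22 ± 0.13 (SE; 95% interval -0.06 to 0.50; limma adjusted p = 0.539) and 0.11 ± 0.091 (-0.10 to 0.32; adjusted p = 0.723). Without single mice the change of the brightest probe set ran from 0.09 (without young replicate 4) to 0.31 (without young replicate 1), and that of the other from 0.05 (without young replicate 2) to 0.19 (without young replicate 1). Both intervals include 0, and that of the brightest probe set includes the change of 0.35 seen in the brightest Lox probe set. Neither includes the change of -0.41 seen in Loxl2. In the brightest probe set the young mice had an SD of 0.28 and the old mice of 0.05.

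By structure, the 2 genes with a propeptide were those higher in old mice. Among the 3 genes with scavenger receptor domains, Loxl2 and Loxl3 were lower and Loxl4 did not pass. The family is too small for a test of this division, and none was made.

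**Figure D3:**
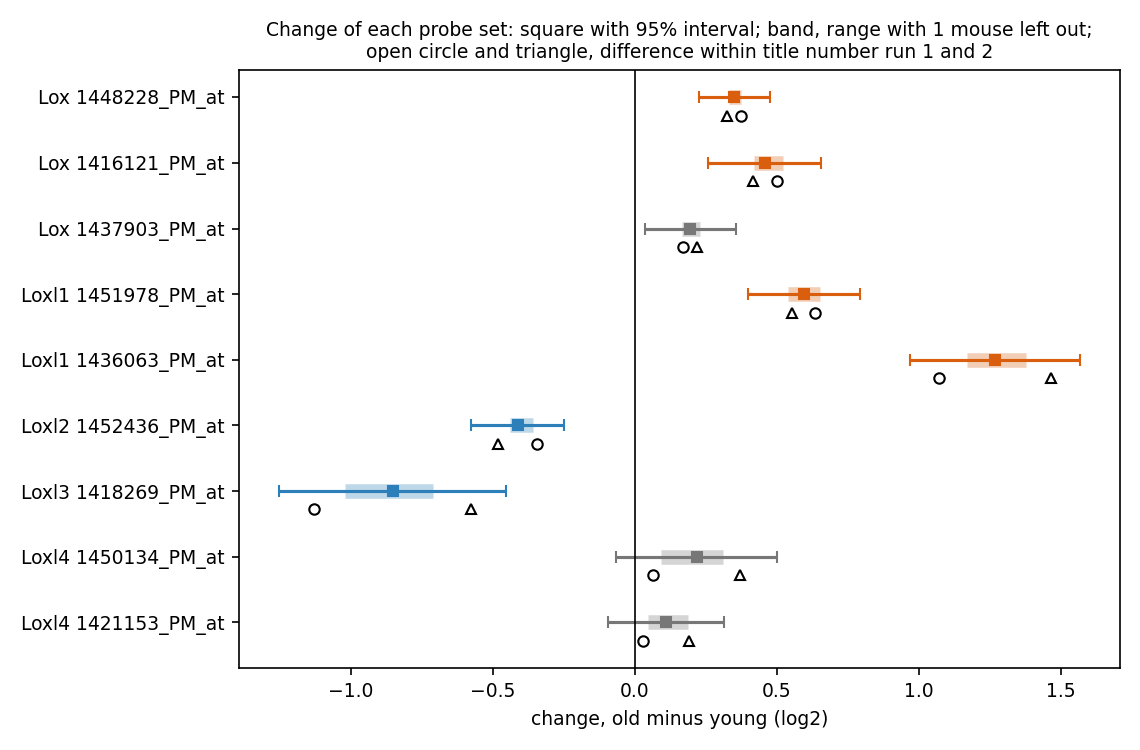
Change from young to old (x axis, log2) of each lysyl oxidase probe set, with its 95% interval, the range over fits without 1 mouse (band) and the differences within run 1 (open circle) and run 2 (open triangle). Orange marks probe sets past the threshold upward, blue downward and grey neither, and all within-run differences lie on the same side of 0 as the overall change.

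Within each run of title numbers the differences kept their sign for 9 of 9 probe sets. The brightest Lox probe set changed by 0.38 in run 1 and 0.33 in run 2, and the brightest Loxl1 probe set by 0.64 and 0.56. The dimmer Loxl1 probe set changed by 1.07 and 1.47, and Loxl2 by -0.35 and -0.48. Loxl3 differed most between runs, at -1.13 in run 1 and -0.58 in run 2, where the young mice of run 2 minus those of run 1 gave -0.56 and the old mice gave 0. The brightest Loxl4 probe set changed by 0.07 and 0.37. With the run as a block in the fit, the same number of family probe sets passed, 4 higher and 2 lower. Without old replicate 3, the mouse with the most keratinocyte transcript, the brightest Lox and Loxl1 probe sets changed by 0.36 and 0.57 and Loxl2 by -0.43, all still past the threshold (limma adjusted p = 0.0348, 0.0312 and 0.0449). The dimmer Loxl1 probe set also passed (1.23, 0.00806). Loxl3 (-0.92, 0.0678) and the second Lox probe set (0.44, 0.0816) did not pass without that mouse.

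After subtraction of each age's mean, correlations between the family's probe sets over the 8 arrays ran from -0.82 to 0.81. The 2 Loxl1 probe sets had r = -0.08, the 2 bright Lox probe sets r = -0.28 and the 2 Loxl4 probe sets r = 0.35. The dim Lox probe set had r = 0.81 with the second Lox probe set and -0.68 with the brightest, so probe sets of 1 gene differed widely in how they varied within an age. The brightest Lox and Loxl1 probe sets had r = 0.32, and Loxl2 and Loxl3 had r = -0.44. The brightest Loxl4 probe set and Loxl2 had r = -0.82. These correlations describe 8 arrays that share normalization and are given without a test.

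Genes whose deviations from the age means were most like those of each member were sought among 10559 other genes above the dim threshold. Loxl4 had the closest, Ece1, an endothelin-converting protease, at r = 0.99 (8 arrays); Ece1 itself was higher in old mice by 0.60 (limma adjusted p = 0.0164). Slx4 and Ifi27 followed for Loxl4 at 0.981 and 0.975. For Lox the closest were C130075A20Rik, Rnf19b and Trpm2 (0.975, 0.96 and 0.96), and for Loxl1 Abca4, Cdk14 and Osbpl9 (0.97, 0.96 and 0.96). For Loxl2 they were Ppp2r2d, Mcm10 and Dmrt2 (0.98, 0.96 and 0.95), and for Loxl3 Eya3, Rnf220 and Ctdspl (0.96, 0.96 and 0.95). With the age means left in, r in the order named was 0.825, 0.475 and 0.599 for Loxl4. It was -0.566, 0.97 and 0.806 for Lox and 0.368, -0.291 and 0.091 for Loxl1. For Loxl2 it was 0.823, -0.438 and -0.491, and for Loxl3 -0.107, 0.571 and 0.965. Being alike within an age thus did not always mean a like change with age. Values of r above 0.9 numbered 21 for Lox, 41 for Loxl1, 31 each for Loxl2 and Loxl3 and 157 for Loxl4. With 8 arrays and this many genes such values can arise by chance, and how many would do so was not estimated. In the brightest Loxl4 probe set young replicate 4 read 10.72, against 11.08 to 11.38 in the other young mice. The part of that mouse in the Loxl4 values was not tested.

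The genes around the lysyl oxidases were read from 8 lists of substrates, partners and regulators, each gene by its brightest probe set. Of 80 listed genes, 70 were measured, meaning that a probe set was annotated with their symbol alone. The listed genes without such a probe set were Fbn1, Efemp2, Thbs1, Adamts2, Adamts14, Mt2, Fkbp10, Aoc2, Maoa and Paox, and they were not read. Of the 70, 5 were higher, 10 lower and 55 did not pass. Among all 17097 named genes read in this way 3.36% passed, 1.57% higher and 1.79% lower. The median change was -0.07 over the 70 genes and 0.01 over all named genes. An unadjusted limma p under 0.05 was found for 35 of the 70 genes and for 2655 of the 17097 named genes. By list these were 4 of 11 fibrillar collagens, 5 of 6 collagen IV chains and 9 of 11 elastin assembly genes. They were also 4 of 8 genes of propeptide cleavage and matrix partners and 8 of 15 TGF-beta, hypoxia and Snail factors. The counts of the remaining lists are given below.

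Fibrillar collagens are the main substrates of Lox. Of 11 measured, 2 were lower and none higher in old mice (median -0.05). Col11a1, a minor fibril component, fell from 7.15 ± 0.40 to 5.08 ± 0.16 (SD, n = 4 each), a change of -2.08 ± 0.18 (SE; limma adjusted p = 0.000741). Its other probe set was dim and did not pass (-0.11), and the mean of both changed by -1.10. Col5a3 fell by 0.98 ± 0.11 (adjusted p = 0.00248), and by 0.98 on its other probe set. The abundant collagens Col1a1 and Col3a1 did not pass by their brightest probe sets. Col1a1, with a young mean of 13.13, changed by -0.05 ± 0.059 near the array maxima of 13.22 to 13.32, and Col3a1 by -0.02 ± 0.064. A dimmer probe set of Col3a1 passed (-0.77, adjusted p = 0.0211), as did the mean of its probe sets (-0.40, adjusted p = 0.0122).

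Collagen IV, the network collagen of basement membranes and a substrate of Loxl2, moved both ways. Of 6 chains, 3 were lower, 2 higher and 1 did not pass (median -0.30). The common chains Col4a1 and Col4a2 fell by 0.48 ± 0.067 and 0.67 ± 0.079 (SE; limma adjusted p = 0.0064 and 0.00307), and Col4a5 fell by 1.12 ± 0.084 (0.000372). Col4a4 rose by 0.94 ± 0.071 (0.000372). Col4a3, outside the rule for named genes and named after its values were seen, rose by 1.13 ± 0.17 (0.00891). The second probe sets of Col4a3, Col4a4 and Col4a5 were dim and did not pass, while that of Col4a1 passed (-0.73). The mean of the Col4a5 probe sets changed by -0.64.

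Elastin assembly genes also moved both ways, with 2 of 11 higher and 2 lower (median -0.24). Eln, the elastin gene, changed by -0.16 ± 0.069 (SE; limma adjusted p = 0.373), and by 0.04 on its other probe set. Ltbp4, which guides elastin onto microfibrils, rose by 0.45 ± 0.080 (adjusted p = 0.0211), and the fibulin gene Efemp1 by 0.37 ± 0.071 (0.0298). The microfibril-associated gene Mfap4 fell by 0.66 ± 0.12 (0.0214) and Emilin1 by 0.46 ± 0.085 (0.0244). Fbln5, the partner of Loxl1, did not pass (-0.24 ± 0.090, 0.276; named after its value was seen). Efemp1 lost its call when any of 6 mice was left out (young replicates 1, 3 and 4, adjusted p = 0.0703, 0.0541 and 0.0671; old replicates 2, 3 and 4, 0.0656, 0.0832 and 0.0865), and with arrays centred on their median (0.0522). Emilin1 lost its call without young replicates 1, 2 or 3 (0.0696, 0.0565 and 0.0739) or old replicate 4 (0.0754), and when the prior followed the mean level (0.0578). Mfap4 lost its call without young replicates 1 or 3 (0.0607 and 0.0644) or old replicate 1 (0.0524), and Ltbp4 without young replicate 3 or old replicate 2 (0.065 and 0.064).

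Among genes of propeptide cleavage and matrix partners, 2 of 8 were lower and none higher (median 0.04). Bmp1, the protease that frees active Lox, changed by 0.07 ± 0.065 (95% interval -0.07 to 0.22; limma adjusted p = 0.749), with 0.10 to 0.11 on its other probe sets. Fmod, a collagen-binding proteoglycan known to direct Lox to collagen, fell from 9.13 ± 0.36 to 6.55 ± 0.27 (SD, n = 4 each), a change of -2.58 ± 0.19 (SE) or 5.99-fold lower (adjusted p = 0.000344). Young mice read 8.78 to 9.58 and old mice 6.32 to 6.87. Postn, or periostin, which is known to promote cleavage of the Lox propeptide by Bmp1, fell by 1.59 ± 0.22 (0.00709), with 9.31 to 9.91 in young and 7.44 to 8.54 in old mice. Both kept their calls in every fit without 1 mouse.

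None of 8 genes of copper uptake and delivery passed in limma (2 had an unadjusted p under 0.05). Of these 2, Atox1 fell by 0.41 without overlap (limma adjusted p = 0.0581), and by 0.30 on its second probe set (0.0578). Atp7b rose by 0.26 (0.286), with overlapping ages. The remaining probe sets of both genes were dim (0.04 and 0.01), and both genes were named after their values were seen. Atp7a, the pump that loads copper into the secretory pathway where lysyl oxidases are made, changed by 0.04 ± 0.15 (SE; 95% interval -0.30 to 0.38; adjusted p = 0.961), and its sign turned without young replicate 2 (-0.06) or old replicate 3 (-0.02). None of 7 genes of lysine hydroxylation and glycosylation passed in limma (2 had an unadjusted p under 0.05), and none of 4 other amine oxidases did (1 had an unadjusted p under 0.05). Those were Plod1 (-0.44), P3h4 (-0.60) and the amine oxidase Smox (-0.76), each lower in old mice without overlap and named after its values were seen. The other probe set of Plod1 changed by -0.055. Of TGF-beta, hypoxia and Snail factors, known to regulate or bind lysyl oxidases, 1 of 15 was higher and 1 lower. The receptor gene Tgfbr2 rose by 0.66 ± 0.11 (adjusted p = 0.0168), but did not pass without old replicates 3 or 4 (both 0.0544). A dimmer probe set of Tgfbr2 also passed (0.46, adjusted p = 0.0499), and its remaining probe set was dim (0.02). The mean of the Tgfbr2 probe sets rose by 0.38 and passed (adjusted p = 0.0186). Tgfbr1 did not pass by its brightest probe set (0.35, adjusted p = 0.289). A dimmer probe set of Tgfbr1 passed (0.475, adjusted p = 0.0169), and the dimmest did not (0.395, 0.296). Other genes of this list did not overlap between the ages by their brightest probe sets but did not pass. Of these, Tgfb2 (0.55) was higher, and Zeb1 (-0.40) and Twist1 (-0.37) were lower in old mice. They and Tgfbr1 were named after their values were seen. Snai1, a transcription factor known to bind Loxl2 and Loxl3, fell by 0.37 ± 0.073 (0.031). Snai1 lost its call with a prior by mean level (0.0673) and in 7 of 8 fits without 1 mouse, namely all but that without old replicate 2 (0.0619 to 0.0916).

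**Figure D4:**
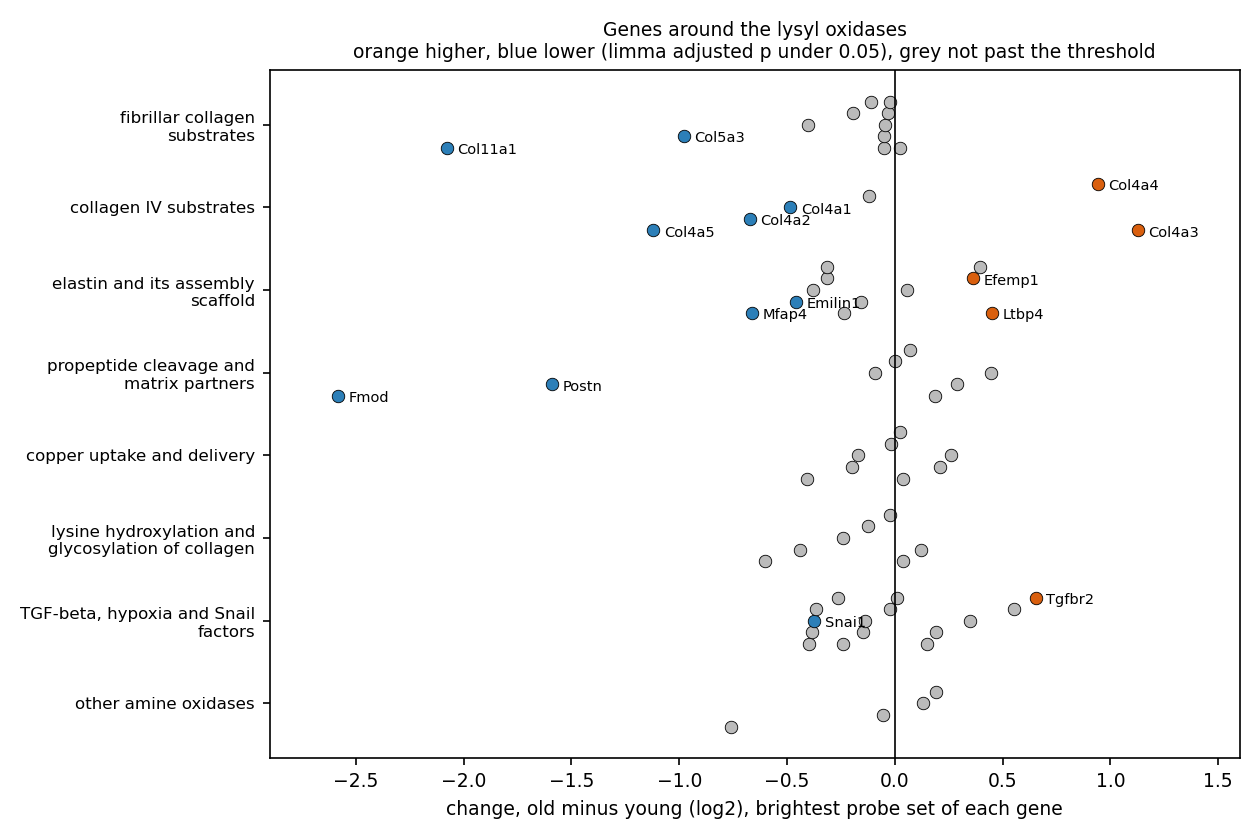
Change from young to old (x axis, log2) of the 70 measured genes around the lysyl oxidases, grouped by role, each by its brightest probe set; vertical position within a group only separates the points. Orange and blue mark the 5 higher and 10 lower genes past the threshold, with Fmod (-2.58) and Col11a1 (-2.08) farthest to the left and Col4a3 (1.13) farthest to the right.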

How the data were processed

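The authors deposited 1 log2 value for each probe set and array. The submitters' processing notes name RMA and affy for this step and give neither version nor settings. RMA corrects background, brings all arrays to a shared distribution and combines a set's probes into 1 value. Such normalization assumes that most transcripts do not shift one way. No detection calls or genome build were used here. Gene names came from the platform annotation, with 28898 of 45141 probe sets having 1 symbol, 551 several and 15692 none. Of the former, 28689 matched by gene identifier to a table of mouse genes (assembly GRCm38.p6) and 0 symbols changed.

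Old and young mice were compared by a linear model (limma 3.58.1, R 4.3.3; two-sided, with moderated variances) on all 45141 probe sets, with Benjamini-Hochberg adjustment over all of them and a threshold of 0.05. Every adjusted p in the text comes from limma, except those named as exact permutation tests. The 104 control probe sets stayed in the fit; leaving them out was an alternative added after seeing the data. No arrays were identical (0 duplicated), and their number limits the precision. Each array is a separate mouse.

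The family and the gene lists were chosen with earlier results of these data known. Named genes were all family probe sets, up to 4 genes with the smallest p among those past the threshold in each list, and Col1a1, Col3a1, Col4a1, Eln, Bmp1 and Atp7a. The fit was tested on simulated arrays.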

Additional observations from a re-analysis of the deposited data

Results flagged for a closer look

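In 4 of 56 sets of 4 mice, 1 mouse stood apart from the other 3 of its age by Dixon's criterion, which chance alone meets in about 1 of 20. In the dimmer bright Lox probe set, old replicate 1 read 9.52, with the other old mice at 9.76 to 9.80. Postn read 9.91 in young replicate 3, with the others at 9.31 to 9.37, and fell by 1.45 without that mouse. Tgfbr2 read 9.97 in young replicate 4, with the others at 10.35 to 10.42, and rose by 0.55 without it. The brightest Col3a1 probe set read 12.54 in young replicate 4, with the others at 12.71 to 12.73.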

How the results depend on the processing

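Over all probe sets 1161 passed, against 679 of 17097 with 1 probe set a gene and 755 of 17097 with the mean of probe sets, both of which test fewer features. Without single mice the count was 697 to 1089, with 697, 705 and 712 without old replicates 3, 4 and 2 and 718 and 726 without young replicates 3 and 2. With the title number block it was 1705 and with array weights 1711. Family probe sets past the threshold numbered 6, and 3 to 6 without single mice; the 3 without young replicate 2, old replicate 2 or old replicate 4 were all higher. With 1 probe set a gene or the mean of probe sets, 4 of 5 family genes passed, 2 higher and 2 lower, and with arrays centred on their median 5 probe sets passed. With the mean of probe sets Loxl1 became 0.93, Tgfbr2 0.38, Col11a1 -1.10, Col4a5 -0.64 and Col3a1 -0.40, which then passed. The 15 pathway genes became 11 to 16 without single mice and 20 with array weights or repeated quantile normalization. Atp7a ranged from -0.057 (without young replicate 2) to 0.18 without single mice and was -0.017 without old replicate 3. No family probe set changed sign in any of the alternatives run. The causes were not tested. Changes of dim probe sets, such as the third of Lox, may be missed.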
